A study of Mus musculus with 12 samples.

Results

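The genes that build, load and switch on the molecules of the major histocompatibility complex (MHC) were followed in RNA from 12 mouse lung tumors. They were chosen by name, as all symbols of the deposited count table that start with H2- plus *B2m*, *Tap1*, *Tap2*, *Tapbp*, *Cd74*, *Ciita*, *Nlrc5*, *Psmb8*, *Psmb9* and *Psmb10*, which gave 54 of 39017 genes. Of these, 38 belong to class I and 14 to class II, while *H2-Ke2* and *H2-Ke6* lie in the same locus but present no antigen and were kept apart. RNA was sequenced from the cells of each tumor left after CD45-positive immune cells had been removed with magnetic beads. All mice were on a C57BL6/J background and carried K-rasLSL-G12D/WT, p53Fl/Fl and CCSP-rtTA, and KPG1 mice carried Glut1Fl/Fl (*Slc2a1*) in addition. The paper states that its control mice were either wild-type for *Slc2a1* or heterozygous for the floxed allele. All mice received 6000 viral units of Lenti.TRE-PPARaD13_PGK-Cre, in which Cre starts the tumors and doxycycline switches on PPARαΔ13, a dominant negative form of PPARα. The KP-PPARαΔ13 and KPG1-PPARαΔ13 groups ate doxycycline pellets (625 mg/kg) for 15 days and the KP and KPG1 groups a regular diet, so that induction and diet changed together, and all tumors were taken 26 weeks after initiation. Each group held 3 tumors, from 2 KP, 3 KP-PPARαΔ13, 2 KPG1 and 2 KPG1-PPARαΔ13 mice if the first number in the labels marks the mouse. Since CCSP-rtTA is driven by the promoter of a club cell gene, the transgene can be induced only in cells in which that promoter is active. The 3 KP tumors were all from females and the 3 KPG1 tumors all from males, so sex and genotype cannot be told apart there, whereas KP-PPARαΔ13 had 1 tumor of a female and 2 of males and KPG1-PPARαΔ13 had 2 and 1. Total counts per tumor were 25263794 to 32654223.

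Class I molecules sit on nearly every nucleated cell and show peptides made inside it to CD8 T cells. Their heavy chain pairs with β2-microglobulin (*B2m*), the peptides are cut by a proteasome whose catalytic subunits are exchanged for *Psmb8*, *Psmb9* and *Psmb10*, carried into the endoplasmic reticulum by *Tap1* and *Tap2*, and loaded with the help of tapasin (*Tapbp*), and *Nlrc5* is the transactivator of these genes. Class II molecules show peptides of ingested proteins to CD4 T cells. Their α and β chains travel with the invariant chain *Cd74*, H2-DM exchanges the peptide, H2-O restrains H2-DM, and *Ciita* is the transactivator. Class II is best known from B cells, dendritic cells and macrophages, but alveolar type 2 cells, the epithelial cells that make surfactant, also carry it.

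The transactivators work through short boxes just before the start site of their target genes, and interferon and NF-κB act through sites close by. The 200 bases upstream of the RefSeq start site (GRCm38.p6, read 5′ to 3′ on the strand of the gene) are shown for 6 members, in capitals where 1 of 4 motifs matched on either strand. The motifs were GAAA, any 2 bases and GAAA again (interferon-stimulated response element), TGACGNNA (X2-type box), CCAAT (Y box) and GGG, any 5 bases and CC (κB site). The members were taken as 2 class I heavy chains whose levels varied widely between tumors, 1 that varied little, the shared light chain, and 2 class II chains.
H2-K1 (chr17:34000348-34000547, minus strand): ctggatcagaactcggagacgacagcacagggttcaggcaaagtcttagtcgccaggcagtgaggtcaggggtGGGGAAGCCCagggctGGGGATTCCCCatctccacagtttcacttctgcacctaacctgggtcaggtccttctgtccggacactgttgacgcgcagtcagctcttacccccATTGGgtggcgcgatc
H2-Q7 (chr17:35438955-35439154, plus strand): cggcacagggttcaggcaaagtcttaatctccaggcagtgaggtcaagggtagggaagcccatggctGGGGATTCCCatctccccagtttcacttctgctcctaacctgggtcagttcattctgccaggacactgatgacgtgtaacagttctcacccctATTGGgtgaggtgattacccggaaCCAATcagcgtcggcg
H2-T22 (chr17:36042743-36042942, minus strand): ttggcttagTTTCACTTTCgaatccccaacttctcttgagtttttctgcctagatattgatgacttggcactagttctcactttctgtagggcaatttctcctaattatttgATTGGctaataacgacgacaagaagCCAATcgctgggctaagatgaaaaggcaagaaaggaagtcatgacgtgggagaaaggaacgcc
B2m (chr2:122147487-122147686, plus strand): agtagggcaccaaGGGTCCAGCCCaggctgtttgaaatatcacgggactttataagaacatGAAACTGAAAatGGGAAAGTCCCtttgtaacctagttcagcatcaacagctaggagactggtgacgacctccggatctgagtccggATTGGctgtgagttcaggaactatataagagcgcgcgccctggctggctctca
H2-Aa (chr17:34287824-34288023, minus strand): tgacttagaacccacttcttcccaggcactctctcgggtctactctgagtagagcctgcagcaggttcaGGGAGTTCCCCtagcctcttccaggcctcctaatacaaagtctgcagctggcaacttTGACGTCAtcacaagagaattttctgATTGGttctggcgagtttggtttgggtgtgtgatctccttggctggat
H2-Eb1 (chr17:34305667-34305866, plus strand): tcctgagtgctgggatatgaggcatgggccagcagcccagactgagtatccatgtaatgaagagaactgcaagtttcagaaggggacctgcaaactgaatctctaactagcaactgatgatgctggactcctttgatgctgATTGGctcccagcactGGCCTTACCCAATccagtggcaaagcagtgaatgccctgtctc
In *H2-K1* and *H2-Q7* the capitals hold GGGGATTCCC and Y boxes, in *H2-T22* a response element on the opposite strand and a pair of Y boxes, and in *B2m* a response element beside a κB site and a Y box. In *H2-Aa* they hold TGACGTCA at position -74 from the start site, a Y box at -48 and a κB match further upstream. In *H2-Eb1* the second Y box overlaps a κB match.

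A promoter was listed for 37 members, and the 250 bases before the start were searched in any of the windows a gene has. The Y box was found in 23 of 28 class I and 8 of 8 class II members, against 37.5% of the 27025 genes with a listed promoter. The response element was found in 3 of 28 class I members and in none of the 8 class II members (3.5% of all genes), the X2-type box in 4 of 28 and 1 of 8 (6.5%), and the κB pattern in 13 of 28 and 5 of 8 (48.7%). A match is a run of letters and not a site shown to be used, and members without one may hold a variant of the box. No promoter was used here for *Cd74*, *Ciita*, *Nlrc5*, *Tap2* or *H2-Ab1*, nor for 12 others.

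Before the members, the 2 genes that the design changes were read in each library, since the groups are named by their labels. *Ppara*, whose count can include reads of the transgene, had 15.7, 10.5 and 9.54 CPM in KP, 2.71, 64.6 and 246 in KP-PPARαΔ13, 7.24, 10.5 and 15.3 in KPG1 and 8.9, 19.2 and 17.7 in KPG1-PPARαΔ13. The first tumor labelled KP-PPARαΔ13 lay below every KP tumor, and the first tumor labelled KPG1-PPARαΔ13 lay below 2 of the 3 KPG1 tumors. The other KPG1-PPARαΔ13 tumors, at 19.2 and 17.7 CPM, lay only a little above the highest KPG1 tumor at 15.3 CPM. *Ppara* thus gives little sign of the transgene anywhere in KPG1-PPARαΔ13. *Slc2a1*, the floxed gene of KPG1 mice, had 41.7, 35.3 and 57.7 CPM in KP, 153, 115 and 108 in KP-PPARαΔ13, 30.2, 64 and 39.9 in KPG1 and 23.7, 53.2 and 54.5 in KPG1-PPARαΔ13. The KPG1 tumors overlapped KP. *Ppara* in the first KP-PPARαΔ13 tumor and *Slc2a1* in KPG1 thus do not show the change that the labels name, and *Ppara* does not set the first KPG1-PPARαΔ13 tumor apart from KPG1. For Glut1 deletion in KPG1 tumors the paper presents real-time PCR of CD45-negative fractions and Glut1 staining. The class medians and the fold changes of named members that rest on the first KP-PPARαΔ13 or the first KPG1-PPARαΔ13 tumor are given with and without each. CPM are read counts scaled to library size with TMM factors.

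RNA of alveolar type 2 marker genes was abundant and that of lymphocyte marker genes scarce. The paper considers type 2 cells the main origin of these tumors and reports organelles resembling their lamellar bodies in the tumor cells. The type 2 markers thus do not tell tumor cells from normal type 2 cells. *Sftpc*, the surfactant gene that marks alveolar type 2 cells, had 14879, 6907 and 26488 CPM in KP, 5540.4, 7819 and 13844 in KP-PPARαΔ13, 19367, 26491 and 29952 in KPG1 and 9798, 15386 and 15077 in KPG1-PPARαΔ13. The 6 type 2 markers summed to 40639, 33483, 56937 and 30771 CPM on average in KP, KP-PPARαΔ13, KPG1 and KPG1-PPARαΔ13. *Ptprc*, the gene of CD45, had 31.5, 1.88 and 7.69 CPM in KP, 4.11, 5.2 and 9.85 in KP-PPARαΔ13, 4.8, 5.09 and 5.49 in KPG1 and 5.76, 8.07 and 3.45 in KPG1-PPARαΔ13. It was highest in the first KP tumor, so the sort left some CD45 RNA there. The markers *Ms4a1* (B cells), *Cd3d*, *Cd3e* and *Cd3g* (T cells) and *Flt3*, *Xcr1* and *Clec9a* (dendritic cells) were below 1 CPM in all 12 tumors. Some others of the B cell and dendritic cell lists were higher. *Cd79b* and *Itgax*, the most abundant genes of these lists, reached 16.1 and 19.2 CPM, and *Cd79a* and *Zbtb46* reached 1.44 and 10.2 CPM. In bulk RNA, fewer cells of a type and less RNA per cell cannot be told apart.

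The 54 members covered the whole range from abundant to absent, as the plot of levels per length shows. To compare genes, counts were scaled by exon length (TPM). *Cd74* was the highest, with a mean of 3639 TPM (1139 to 5761) over the 12 tumors, the 12th highest of 25017 genes. Among class I, *B2m* had 1134 TPM (338 to 4474), *H2-D1* 707 TPM (117 to 2368) and *H2-K1* 694 TPM (125 to 2921), and the latter 2, the classical heavy chains, differed by less than the spread between tumors. The class II chains *H2-Eb1*, *H2-Aa* and *H2-Ab1* followed with means of 459, 391 and 358 TPM.

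**Figure D1:**
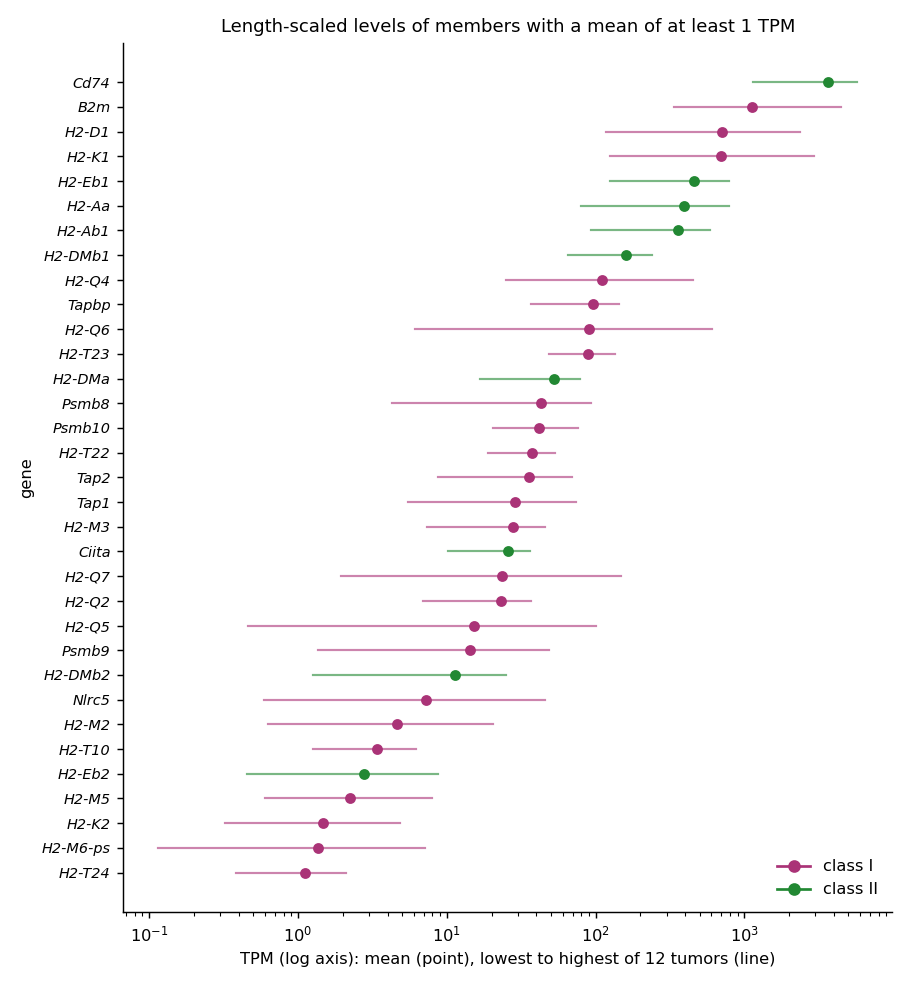
Levels of the 33 members with a mean of at least 1 TPM, 24 of class I and 9 of class II, on a log axis. Points are means over 12 tumors and lines run from the lowest to the highest tumor, with *Cd74*, *B2m*, *H2-D1* and *H2-K1* at the top; names and groups in the figures are written PPARaD13 for PPARαΔ13.

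The machinery of loading stood lower than the classical chains, *B2m* and the main class II chains. *Tapbp* had a mean of 96.2 TPM (36.9 to 143), the immunoproteasome genes *Psmb8*, *Psmb10* and *Psmb9* 42.7, 41.5 and 14.3 TPM, and *Tap2* and *Tap1* 35.6 and 28.8 TPM. For class II, *H2-DMb1* had 160.2 TPM, *H2-DMa* 52.2 TPM and the H2-O chains *H2-Oa* and *H2-Ob* 0.609 and 0.197 TPM. The transactivators were unequal, with 25.6 TPM (10.2 to 36.1) for *Ciita* and 7.28 TPM (0.591 to 45.6) for *Nlrc5*. Of the other class I chains the highest was *H2-Q4* at 111 TPM. No read was counted for 8 members, namely *H2-Q3*, *H2-M10.1*, *H2-M10.2*, *H2-M10.3*, *H2-M10.6*, *H2-M11*, *H2-Pa* and the pseudogene *H2-Ea-ps*. A count of 0 allows up to 3 reads per library, or at most 0.12 CPM, for counting error only. *H2-Ea-ps* stands for the α chain that C57BL/6 mice lack, and *H2-Eb1* encodes the β chain that would pair with it. Another 7 members had fewer than 10 reads in every tumor, and 25 class I members, 11 class II members and the 2 locus genes passed edgeR's filter on low counts.

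Some members share sequence. Of the 85-base windows of their GENCODE M21 transcripts, none of *B2m*, *Nlrc5*, *H2-Aa*, *H2-Ab1*, *H2-Eb1*, *H2-M3* or *Cd74* occurs in another gene, and 2% of *H2-K1* and 4.6% of *H2-D1* do. The shares were 17.2% for *H2-Q4*, 18.4% for *H2-Q5*, 17.4% for *H2-Q6*, 14.8% for *H2-Q7*, 35.7% for *H2-T22*, 32% for *H2-T10* and 16.9% for *Tapbp*, so the counts of these genes are less certain. *Psmb9* and *Tap1* overlap on opposite strands and share 3.1% and 2.2% of their windows.

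Class I levels differed widely between tumors of the same group. *H2-K1* had 2481, 159 and 537 CPM in KP, 732, 612 and 394 in KP-PPARαΔ13, 472, 1023 and 216 in KPG1 and 102, 206 and 272 in KPG1-PPARαΔ13. *B2m*, its light chain, had 1112, 74.3 and 284 CPM in KP, 298, 213 and 192 in KP-PPARαΔ13, 239.9, 668 and 113 in KPG1 and 83, 92.9 and 108 in KPG1-PPARαΔ13. In both genes the first KP tumor was the highest of all and the second KP tumor the lowest or next to lowest, so that KP alone spanned nearly the whole range, whereas the 3 KP-PPARαΔ13 tumors stayed close together. The KPG1 tumors spread widely as well, and the 3 KPG1-PPARαΔ13 tumors lay in the lower part of the range. *H2-D1*, the other classical heavy chain, had 1765, 191 and 565 CPM in KP, 542, 468 and 659 in KP-PPARαΔ13, 522, 907 and 218 in KPG1 and 84.3, 225 and 316 in KPG1-PPARαΔ13, the same order within KP and KPG1.

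**Figure D2:**
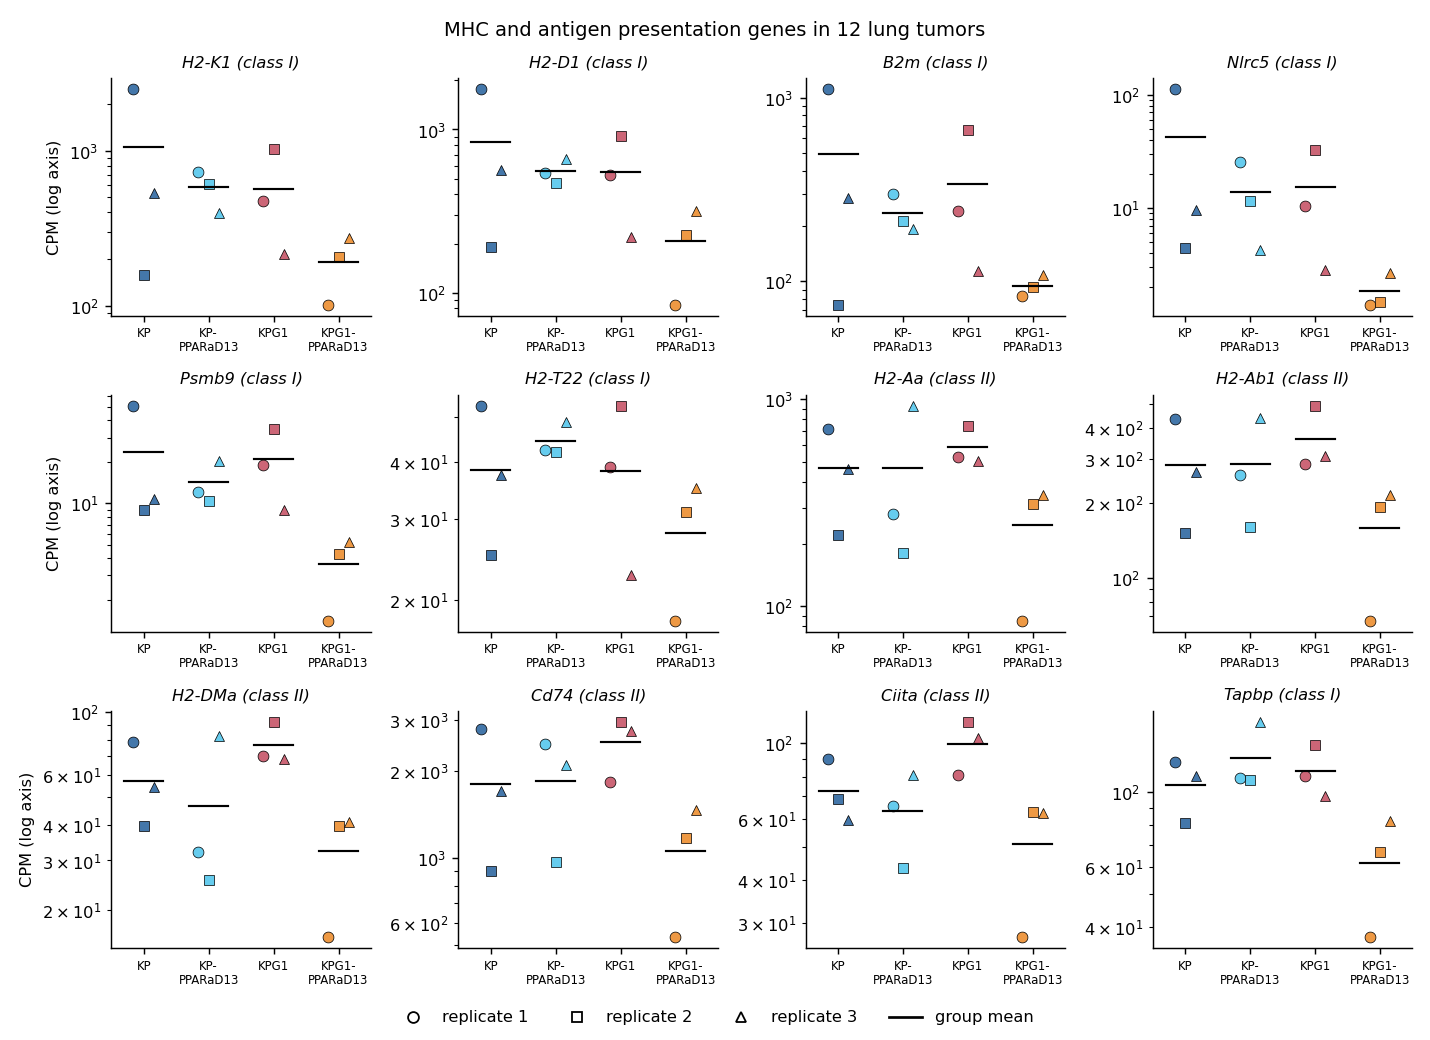
CPM of 12 members in the 12 tumors on log axes, with 1 symbol per replicate number and a line at each group mean. The first KP tumor is the highest for *H2-K1*, *H2-D1*, *B2m*, *Nlrc5* and *Psmb9*, and the 3 KPG1-PPARαΔ13 tumors lie below the 3 KPG1 tumors for *B2m*, *Nlrc5*, *Psmb9*, *H2-Aa*, *H2-Ab1*, *H2-DMa*, *Cd74*, *Ciita* and *Tapbp*.

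*Nlrc5*, the class I transactivator, followed the same tumors over a wider range. It had 112, 4.4 and 9.68 CPM in KP, 25.4, 11.6 and 4.29 in KP-PPARαΔ13, 10.5, 32.4 and 2.84 in KPG1 and 1.4, 1.47 and 2.65 in KPG1-PPARαΔ13. Its highest level was 80 times its lowest, against 24.3 times for *H2-K1* and 15 times for *B2m*. Of the members with a mean of at least 1 CPM, 3 genes of the Q region had the highest ratios. *H2-Q6*, which with *H2-Q7* encodes the Qa-2 antigen, had 364, 8.06 and 39.4 CPM in KP, 64.9, 29.9 and 15.1 in KP-PPARαΔ13, 27.4, 99.7 and 5.35 in KPG1 and 3.55, 4.13 and 7.3 in KPG1-PPARαΔ13. The ratio of the highest to the lowest tumor was 103 for *H2-Q6*, 80.2 for *H2-Q7* and 227 for *H2-Q5*, but 18.5 for *H2-Q4* and 6.47 for *H2-Q2*. Other class I genes varied less. *H2-T22*, a chain that binds no peptide and is read by some γδ T cells, had 52.8, 25.1 and 37.4 CPM in KP, 42.5, 42.1 and 48.8 in KP-PPARαΔ13, 39, 53.1 and 22.6 in KPG1 and 18, 31.1 and 35.1 in KPG1-PPARαΔ13. The ratio was 2.95 for it, 3.09 for *H2-T23*, whose product Qa-1 presents signal peptides of other class I chains, 3.75 for *Psmb10* and 4.33 for *Tapbp*.

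Among the 21 tested class I members with a mean of at least 1 CPM, the median ratio of highest to lowest tumor was 15, against 2.59 over the 14109 tested genes of that level, and 97 of those with a tumor at 0 were left out of the latter. The first KP tumor was the highest in 15 of the 21, and the first KPG1-PPARαΔ13 tumor the lowest in 17, while over all these genes they were so for 10.2% and 11.2%. For the 9 class II members the median ratio was 7. The highest tumor was the second KPG1 tumor in 6 of them and the third KP-PPARαΔ13 tumor in 3, and the first KPG1-PPARαΔ13 tumor was the lowest in 8. How often the second KPG1 or the third KP-PPARαΔ13 tumor was the highest over all genes was not computed. The heat map shows the same for each gene.

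**Figure D3:**
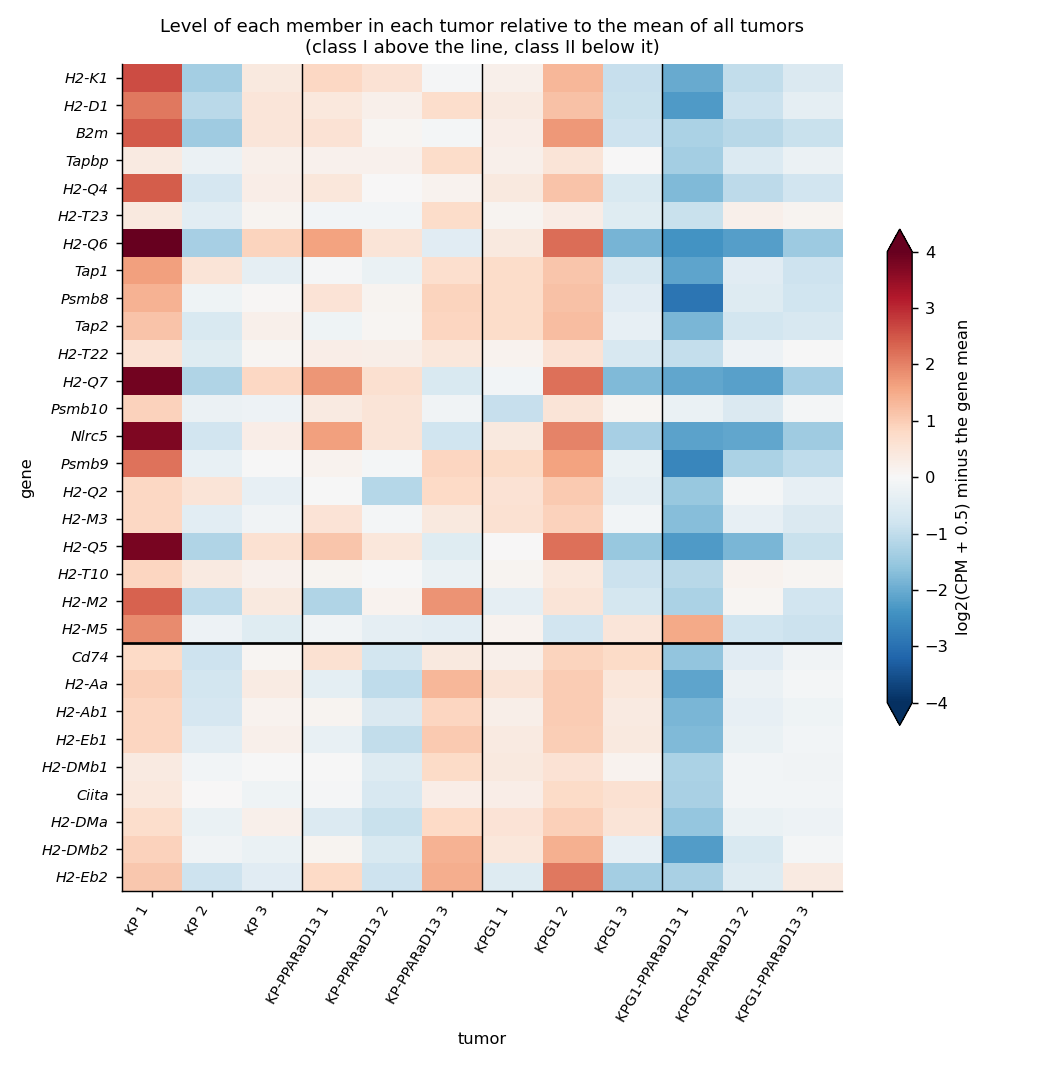
log2(CPM + 0.5) of the 30 tested class I and class II members with a mean of at least 1 CPM, minus the mean of the gene over the 12 tumors, with colors cut at -4 and 4. The first KP tumor is the highest in 15 of 21 class I genes, and the first KPG1-PPARαΔ13 tumor the lowest in 17 of 21 class I and 8 of 9 class II genes.

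Class II levels ordered the tumors differently. *Cd74*, the invariant chain, had 2796, 901 and 1708 CPM in KP, 2466, 967 and 2101 in KP-PPARαΔ13, 1833, 2950.4 and 2745 in KPG1 and 533, 1174 and 1471 in KPG1-PPARαΔ13. *H2-Aa*, the α chain of the I-A molecule, had 719, 221 and 462 CPM in KP, 278, 181 and 932 in KP-PPARαΔ13, 527, 739 and 505 in KPG1 and 84.8, 312 and 346 in KPG1-PPARαΔ13. *H2-Ab1*, its β chain, had 435, 152 and 267 CPM in KP, 259, 161 and 439 in KP-PPARαΔ13, 286, 493 and 309 in KPG1 and 67, 193 and 215 in KPG1-PPARαΔ13. In these 3 genes the third KPG1 tumor, low in class I, was no lower than the first KPG1 tumor except for a small gap in *H2-Aa*, and all 3 KPG1-PPARαΔ13 tumors lay below all 3 KPG1 tumors. *Ciita*, the transactivator, had 90, 68.8 and 59.7 CPM in KP, 65.7, 43.2 and 81.1 in KP-PPARαΔ13, 80.8, 115 and 103 in KPG1 and 27.2, 63.1 and 62.6 in KPG1-PPARαΔ13. The peptide exchange chain *H2-DMa* had 78.2, 39.6 and 54.3 CPM in KP, 32.2, 25.6 and 82.2 in KP-PPARαΔ13, 69.8, 92.4 and 68.3 in KPG1 and 16.1, 39.7 and 41 in KPG1-PPARαΔ13.

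The summed level of the 38 class I members was 3281 ± 3367 CPM in KP, 1987 ± 202 CPM in KP-PPARαΔ13, 2109 ± 1357 CPM in KPG1 and 786 ± 311 CPM in KPG1-PPARαΔ13 (mean ± SD of 3 tumors). That of the 14 class II members was 3057 ± 1515, 3059.8 ± 1380, 4103 ± 892 and 1767 ± 834 CPM in the same order. The KP mean of class I rested on the first tumor, with 7115 CPM against 807 and 1921 CPM in the other two. That tumor also had the highest sum of the 6 leukocyte markers, 72.2 CPM against 6.76 and 30.7 CPM, with *Ptprc* as the most abundant of them. The part of these cells in its class I level was not tested.

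**Figure D4:**
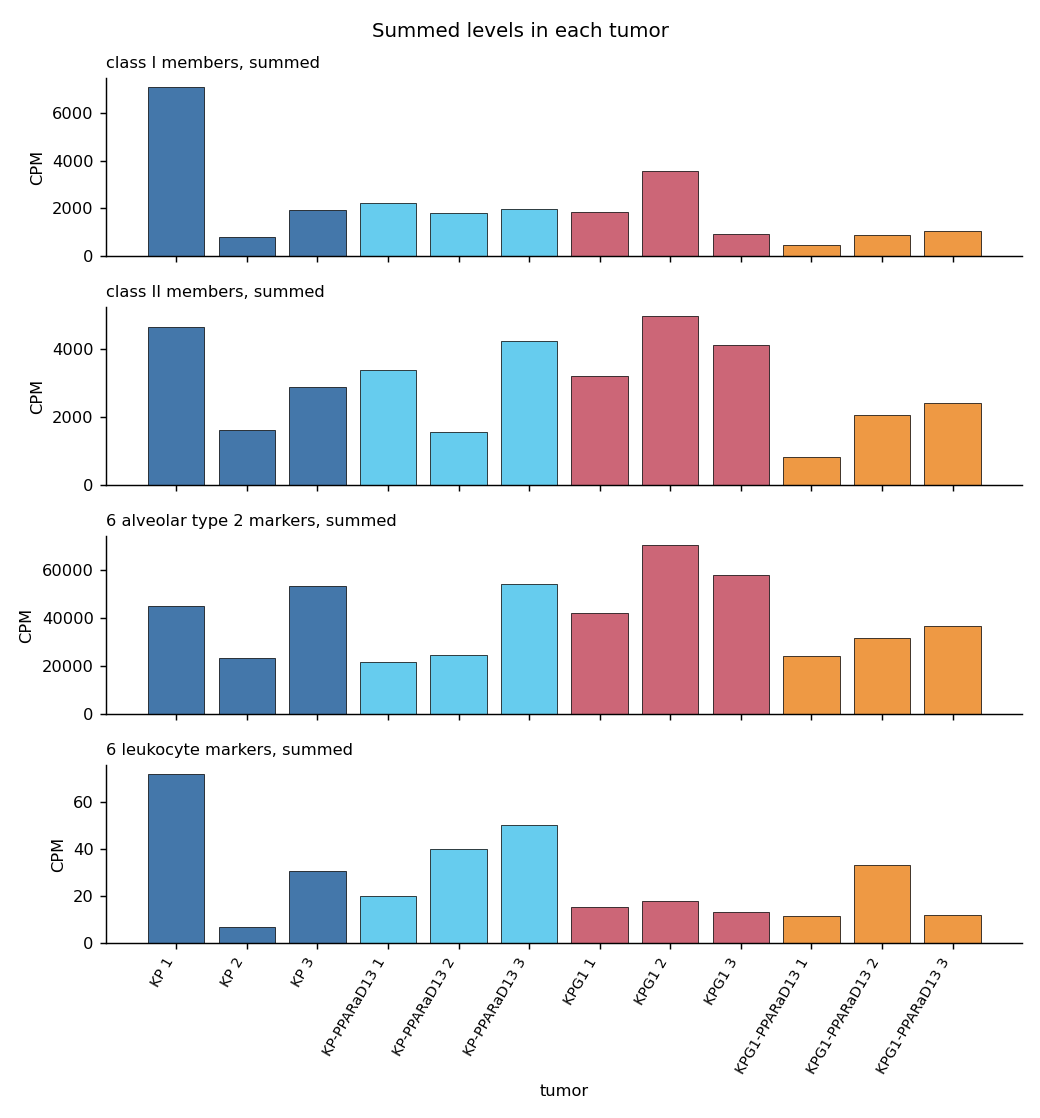
Summed CPM of class I members, class II members, 6 alveolar type 2 markers and 6 leukocyte markers in each of the 12 tumors, with each panel on its own axis from 0. Class I peaks in the first KP tumor at 7115 CPM, where leukocyte markers also peak at 72.2 CPM, and class II is lowest in the first KPG1-PPARαΔ13 tumor at 828 CPM.

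The first comparison asked what PPARαΔ13 changed in tumors of mice without Glut1Fl/Fl. No member passed the test in KP-PPARαΔ13 against KP. *H2-K1* had a log2 fold change of -0.87 ± 0.821 SE (adjusted p = 0.75) and *B2m* a log2 fold change of -1.06 ± 0.794 SE (adjusted p = 0.657) in edgeR's quasi-likelihood test, with the groups overlapping. *H2-Aa* had a log2 fold change of -0.011 ± 0.647 SE (adjusted p = 0.997) and *Cd74* a log2 fold change of 0.034 ± 0.489 SE (adjusted p = 0.99). The 95% intervals still allowed sizable changes, from -2.67 to 0.93 for *H2-K1* and from -1.04 to 1.11 for *Cd74*. Over all genes tested, 0.00605% had an adjusted p under 0.05, 6.03% were lower and 5.32% higher at an unadjusted p under 0.05. Of the 25 class I and 11 class II members tested none did so in either direction in edgeR or DESeq2, which called 2.26% of all genes after adjustment. In 1 class I member and no class II member all KP-PPARαΔ13 tumors lay below all KP tumors, as in 6.7% of all genes. The median log2 fold change was -0.60 in class I and -0.011 in class II, against -0.0082 over all genes. The class I median turned to 0.53 and the class II median to 0.44 without the first KP tumor, and 1 class II member was then higher at an unadjusted p under 0.05. Without the second KP tumor 3 class I members were lower at that threshold, with 23 of 25 negative and a median of -0.78, and without the third KP-PPARαΔ13 tumor 1 class II member was, with 10 of 11 negative and a median of -0.54. Over all genes, 821 of 16984 were higher without the first KP tumor and 584 of 16896 lower without the second. Without the third KP-PPARαΔ13 tumor 1200 of 16939 were lower. With sex as a covariate the class II median was -0.59, with all 11 members negative, and *Cd74* turned to -0.54. Without the first KP-PPARαΔ13 tumor, the one with little *Ppara*, the medians were -0.54 and 0.054, and the log2 fold changes -1.07 for *H2-K1*, -1.27 for *B2m*, 0.25 for *H2-Aa* and -0.23 for *Cd74*, the last 2 with the opposite sign. The locus gene *H2-Ke2*, which encodes a prefoldin subunit, was the single member of the 54 with an unadjusted p under 0.05, with 27.3, 20.6 and 29.1 CPM in KP and 37, 40.5 and 35.9 CPM in KP-PPARαΔ13 (adjusted p = 0.382). Cell type markers moved as well. All 6 fibroblast markers had positive fold changes (median 1.17), 3 at an unadjusted p under 0.05 (5.32% of all genes). They summed to 190 ± 82.3 CPM in KP and 438 ± 126 CPM in KP-PPARαΔ13 (SD of 3 tumors each). Of 5 erythroid markers 4 were higher at that threshold (median 1.47), against the same 5.32%. Of the 6 type 2 markers 5 had negative fold changes (median -0.47), none at that threshold. Their part in the class I and class II levels was not tested.

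The second comparison asked the same in tumors of Glut1Fl/Fl mice. In KPG1-PPARαΔ13 against KPG1, 22 of 25 class I and 10 of 11 class II members had a negative log2 fold change, but none passed the test after adjustment over all 16527 genes (the smallest adjusted p of a member was 0.42). At an unadjusted p under 0.05, 12 of 25 class I and 5 of 11 class II members were lower and none higher. This compares with 4.5% of all genes lower and 6.25% higher, and with 0.00605% past the adjusted threshold. In 8 class I and 7 class II members all 3 KPG1-PPARαΔ13 tumors lay below all 3 KPG1 tumors, as in 9.41% of all genes, and in none did they lie above, as in 11.2%. The median log2 fold change was -1.36 in class I and -1.20 in class II, against 0.023 over all genes.

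By role, 7 of the 8 genes that serve all class I chains, *B2m* among them, were lower at an unadjusted p under 0.05, against 4.5% of all genes. *Psmb9*, a catalytic subunit of the immunoproteasome, had 19, 34.6 and 8.99 CPM in KPG1 and 1.4, 4.29 and 5.2 CPM in KPG1-PPARαΔ13, a log2 fold change of -2.52 ± 0.755 SE (adjusted p = 0.42). DESeq2, which called 1.28% of all genes here, called *Psmb9* alone among the members (log2 fold change -2.53, adjusted p = 0.0335). *Psmb8* had 4.03, 23.7 and 19.3 CPM in KPG1-PPARαΔ13 against 57, 77.2 and 24.6 CPM in KPG1, the order kept for the genes that follow, a log2 fold change of -1.75 ± 0.638 SE (adjusted p = 0.42). The chains of the peptide transporter gave similar values. *Tap2* had 9.24, 20.1 and 21.7 against 56.7, 80.8 and 26.6 CPM, a log2 fold change of -1.68 ± 0.53 SE (adjusted p = 0.42). *Tap1* had 8.32, 27 and 21.1 against 63.3, 81 and 24.2 CPM, a log2 fold change of -1.58 ± 0.594 SE (adjusted p = 0.42), with the third KPG1 tumor below the second KPG1-PPARαΔ13 tumor. *Tapbp*, the loading factor, had the smallest standard error of the named members, with 37.3, 66.4 and 82 against 112, 138 and 97.7 CPM and a log2 fold change of -0.90 ± 0.294 SE (adjusted p = 0.42). *Psmb10* had 16.2, 12.9 and 18.2 against 10, 27.7 and 20.6 CPM and overlapped.

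Of the chains, *B2m* had a log2 fold change of -1.85 ± 0.811 SE (adjusted p = 0.455), and its 3 KPG1-PPARαΔ13 tumors lay below all KPG1 tumors. *H2-K1* had a log2 fold change of -1.56 ± 0.834 SE (adjusted p = 0.527), and the third KPG1 tumor, at 216 CPM, lay among the KPG1-PPARαΔ13 tumors. *H2-M3*, which presents formylated peptides of bacteria and mitochondria, had 2.93, 8.42 and 7.02 against 16.5, 20.8 and 9.81 CPM, a log2 fold change of -1.36 ± 0.465 SE (adjusted p = 0.42). Over the 17 tested heavy chains the median was -0.69, with 5 lower at an unadjusted p under 0.05 (4.5% of all genes), and it was -1.72 for the 8 genes that serve them, *B2m* included.

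In class II, *Ciita* had a log2 fold change of -0.97 ± 0.335 SE (adjusted p = 0.42) and *H2-DMa* a log2 fold change of -1.25 ± 0.469 SE (adjusted p = 0.42). *Cd74* had a log2 fold change of -1.24 ± 0.497 SE (adjusted p = 0.428), from 2509 ± 595 CPM in KPG1 to 1059 ± 479 CPM in KPG1-PPARαΔ13 (SD of 3 tumors each). *H2-Ab1* had a log2 fold change of -1.20 ± 0.509 SE (adjusted p = 0.443), *H2-Aa* a log2 fold change of -1.25 ± 0.657 SE (adjusted p = 0.522) and *H2-DMb1* a log2 fold change of -0.79 ± 0.357 SE (adjusted p = 0.461). In all of these the groups did not overlap. Markers of alveolar type 2 cells were lower in the same tumors. Their sum was 56937 ± 14352 CPM in KPG1 and 30771 ± 6173 CPM in KPG1-PPARαΔ13 (SD of 3 tumors each), all 6 of them were tested, 5 had no overlap between the groups and 2 an unadjusted p under 0.05, against 9.41% and 4.5% of all genes lower. *Lamp3*, a protein of lamellar bodies, had 114, 401 and 556 against 1233, 1641 and 1056 CPM, a log2 fold change of -1.88 ± 0.517 SE (adjusted p = 0.42). The most abundant marker, *Sftpc*, had 9798, 15386 and 15077 against 19367, 26491 and 29952 CPM. Their part in the class II levels was not tested. The 5 endothelial markers, led by *Pecam1*, all had negative fold changes, none at an unadjusted p under 0.05, with sums of 288, 92.9 and 236 CPM in KPG1 and 139.6, 92.8 and 145 CPM in KPG1-PPARαΔ13. Leukocyte markers were not lower on average, with sums of 15.2, 17.7 and 13 CPM in KPG1 and 11.6, 33.1 and 11.8 CPM in KPG1-PPARαΔ13. The 5 macrophage markers summed to 25.9, 29.8 and 35.4 and 27.6, 50 and 42.6 CPM, and 4 of them had positive fold changes, with a median of 0.51 and 1 (*Mrc1*) higher at an unadjusted p under 0.05, against 6.25% of all genes.

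The counts depended on single tumors. The 12 class I members became 4 without the second KPG1 tumor, 5 without the first and 6 without the second KPG1-PPARαΔ13 tumor, and the 5 class II members became 1 without the second KPG1 or the first KPG1-PPARαΔ13 tumor, while both medians stayed below -0.84. With sex as a covariate they were 1 and 0, with medians of -0.95 and -0.62, where all 3 KPG1 tumors but only 1 KPG1-PPARαΔ13 tumor came from males. Over all genes, 744 of 16527 were lower at an unadjusted p under 0.05 in the unchanged fit, and 246 of 16527 with sex. They were 544 of 17000 without the second KPG1 tumor. Without the first and the second KPG1-PPARαΔ13 tumor they were 392 of 16899 and 551 of 16923. Without the first KPG1-PPARαΔ13 tumor, where *Ppara* lay within the KPG1 range, the medians were -1.22 in class I and -0.84 in class II. The log2 fold changes were then -2.14 for *Psmb9*, -1.30 for *Psmb8*, -1.39 for *Tap2*, -1.22 for *Tap1* and -0.64 for *Tapbp*. The chains *B2m*, *H2-K1* and *H2-M3* had -1.76, -1.25 and -1.02. In class II the values were -0.67 for *Ciita*, -0.93 for *H2-DMa*, -0.92 for *Cd74*, -0.83 for *H2-Ab1*, -0.84 for *H2-Aa* and -0.50 for *H2-DMb1*.

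**Figure D5:**
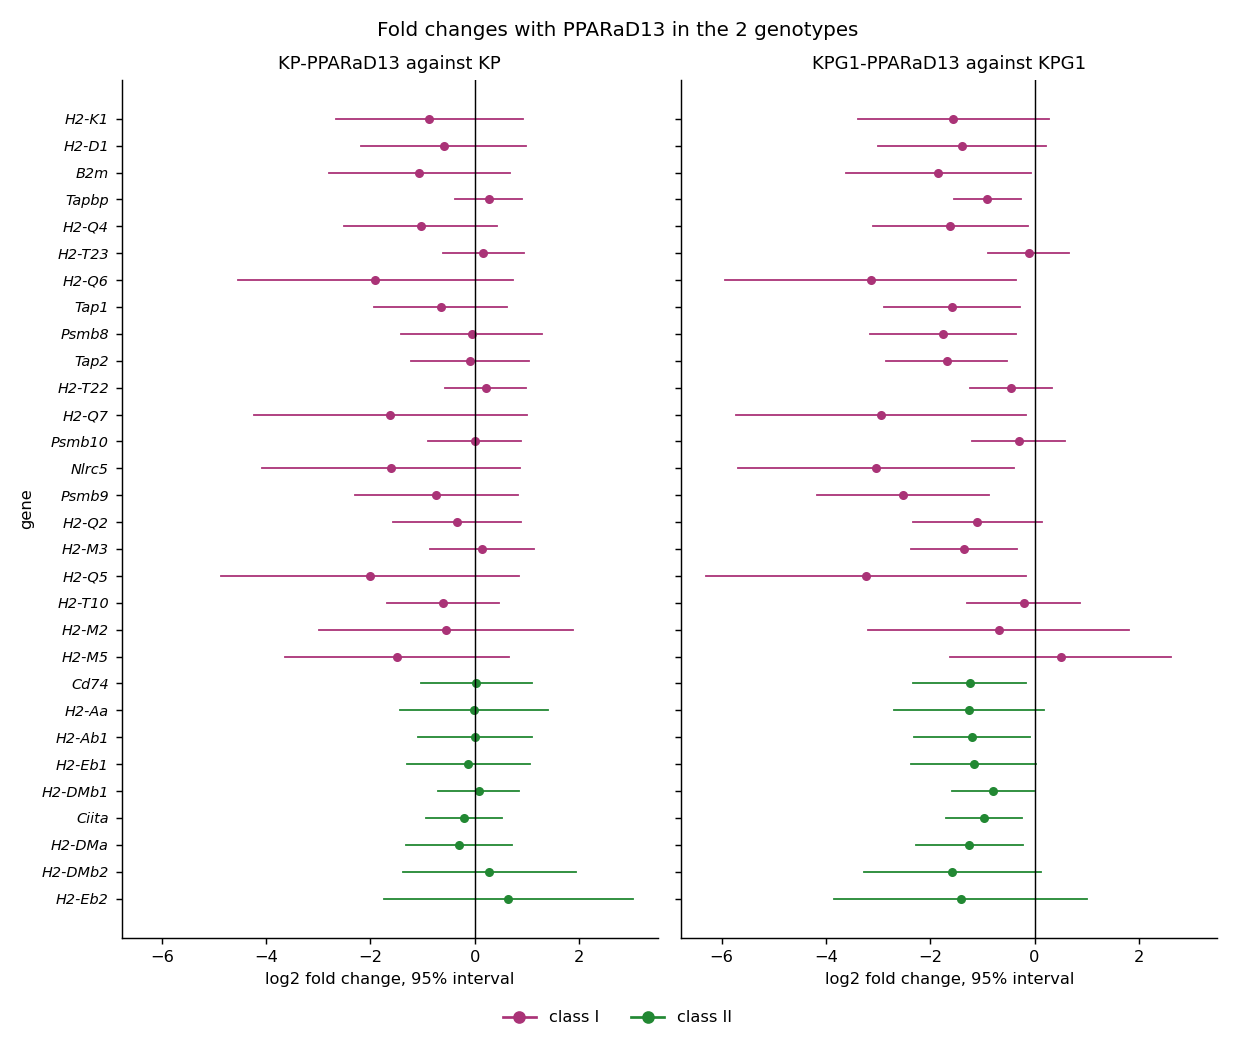
log2 fold changes (points) with 95% intervals (lines) from edgeR for the same 30 members, in KP-PPARαΔ13 against KP at the left and KPG1-PPARαΔ13 against KPG1 at the right. No interval lies wholly below 0 at the left and 17 do at the right, before adjustment over all genes.

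Whether the effect of PPARαΔ13 differed between genotypes was tested as an interaction. No member passed it, nor did any of the 16527 genes (0% called). *Tapbp* had a difference of log2 fold changes of -1.17 (standard error 0.413, adjusted p = 0.359) and *H2-M3* one of -1.49 (standard error 0.649, adjusted p = 0.41). These were the 2 members of class I at an unadjusted p under 0.05, and class II had none, against 4.94% of all genes lower and 6.87% higher. The locus gene *H2-Ke2* had a lower difference at that threshold as well. Without the first KP tumor, 12 of 25 class I and 3 of 11 class II members were lower at that threshold, and without the second KP-PPARαΔ13 tumor 2 of each class. Without the third KPG1 tumor 4 class I members were, and without the second KPG1 tumor 1. The class I count was 4 with DESeq2, 3 with limma voom and 0 with sex as a covariate. With tumors of one mouse summed 1 class II member was lower. Over all genes, 1042 of 16984 had a lower difference at that threshold without the first KP tumor and 931 of 16961 without the second KP-PPARαΔ13 tumor. Without the third and the second KPG1 tumor they were 1016 of 16980 and 545 of 17000. They were 1058 of 16431 with DESeq2 and 825 of 16527 with limma voom. With sex they were 332 of 16527 and with tumors of one mouse summed 593 of 16794. After adjustment DESeq2 called no member either, and 1.74% of all genes. *H2-K1*, *B2m*, *H2-Aa* and *Cd74* had differences of -0.69, -0.78, -1.24 and -1.28, with standard errors of 1.15, 1.11, 0.918 and 0.695. The median over class I was -0.75, but -1.83 without the first KP tumor and -0.014 without the second KPG1 tumor. That over class II was -1.04, but 0.091 with sex as a covariate. Without the first KP-PPARαΔ13 tumor the medians were -0.65 and -1.16, and the differences -1.26 for *Tapbp*, -1.35 for *H2-M3*, -0.49 for *H2-K1*, -0.58 for *B2m*, -1.51 for *H2-Aa* and -1.01 for *Cd74*. Without the first KPG1-PPARαΔ13 tumor they were -0.43 and -0.83, and the differences -0.91 for *Tapbp*, -1.16 for *H2-M3*, -0.38 for *H2-K1*, -0.70 for *B2m*, -0.83 for *H2-Aa* and -0.96 for *Cd74*. The effects in KP and KPG1 tumors are thus not shown to differ.

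The third comparison set KPG1 against KP, where genotype and sex differ together. No member passed the test and none of class I or class II had an unadjusted p under 0.05 in edgeR or DESeq2, against 3.81% of all genes lower and 2.42% higher, and 0.0363% past the adjusted threshold. *H2-K1* had a log2 fold change of -0.89 ± 0.821 SE (adjusted p = 0.864) and *B2m* a log2 fold change of -0.53 ± 0.787 SE (adjusted p = 0.922). *H2-Aa* had a log2 fold change of 0.34 ± 0.647 SE (adjusted p = 0.947) and *Cd74* a log2 fold change of 0.48 ± 0.49 SE (adjusted p = 0.879). DESeq2 called 0.365% of all genes. The groups overlapped in all class I and class II members, while 5.13% of all genes were lower without overlap. The class I median of -0.57 turned to 0.61 without the first KP tumor, and the class II median was 0.35. With sex as a covariate the class II median was -0.43, with all 11 members tested negative, and *H2-Aa* and *Cd74* turned to -0.80 and -0.26. Without the first KP tumor, and with no covariate, the class II median was 0.79, and 1 class II member was higher at an unadjusted p under 0.05. Without the second KPG1 tumor 1 class I member was lower at that threshold, with 22 of 25 negative and a median of -0.87. Over all genes, 429 of 16984 were higher without the first KP tumor and 359 of 17000 lower without the second KPG1 tumor. Mean sums of cell type markers also differed. The 6 leukocyte markers summed to 36.6 ± 33.1 CPM in KP and 15.3 ± 2.35 CPM in KPG1, and the 5 macrophage markers to 47.4 ± 2.69 and 30.4 ± 4.8 CPM (SD of 3 tumors each). The leukocyte mean of KP rested on the first tumor, with sums of 72.2, 6.76 and 30.7 CPM. The second KP tumor lay below all KPG1 tumors, which had 15.2, 17.7 and 13 CPM. All of both lists had negative fold changes, with medians of -1.29 and -1.20, and of the 11 only 1 macrophage marker had an unadjusted p under 0.05. The 6 type 2 markers all had positive ones, with a median of 0.53, none at that threshold and sums of 40639 ± 15576 and 56937 ± 14352 CPM. Their part in the class I and class II levels was not tested.

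The fourth comparison set KPG1-PPARαΔ13 against KP-PPARαΔ13, and it shares its first group with the second comparison. At an unadjusted p under 0.05, 8 of 25 class I members were lower and none higher, against 4.44% and 5.25% of all genes, while none of the 11 class II members was. No member passed the adjusted threshold in edgeR or DESeq2, as 0.0303% and 0.943% of all genes did. In 16 class I members all KPG1-PPARαΔ13 tumors lay below all KP-PPARαΔ13 tumors, and in no class II member, against 7.25% of all genes. The locus gene *H2-Ke2* was lower too, at an unadjusted p under 0.05 and without overlap (means of 23.5 against 37.8 CPM, adjusted p = 0.475). The loading factor *Tapbp* had 37.3, 66.4 and 82 CPM in KPG1-PPARαΔ13 against 109.9, 109 and 161 CPM in KP-PPARαΔ13, a log2 fold change of -1.03 ± 0.294 SE (adjusted p = 0.462). *Psmb9* had 1.4, 4.29 and 5.2 CPM against 12.1, 10.3 and 20.3 CPM, a log2 fold change of -1.97 ± 0.741 SE (adjusted p = 0.492). *Psmb8* and *Tap2* had log2 fold changes of -1.67 and -1.32, with standard errors of 0.636 and 0.525. *Nlrc5* had 1.4, 1.47 and 2.65 CPM against 25.4, 11.6 and 4.29 CPM, a log2 fold change of -2.90 ± 1.2 SE (adjusted p = 0.499). The chain *H2-M3* had 2.93, 8.42 and 7.02 CPM against 15.8, 10 and 14.2 CPM, a log2 fold change of -1.12 ± 0.462 SE (adjusted p = 0.499).

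For the anchors of each class, *H2-K1* had a log2 fold change of -1.58 ± 0.834 SE (adjusted p = 0.548) and *B2m* a log2 fold change of -1.31 ± 0.799 SE (adjusted p = 0.601), both without overlap. *H2-Aa* had a log2 fold change of -0.91 ± 0.652 SE (adjusted p = 0.644) and *Cd74* a log2 fold change of -0.80 ± 0.492 SE (adjusted p = 0.604), both with overlap. Mean sums of fibroblast, leukocyte, macrophage and endothelial markers were also lower in KPG1-PPARαΔ13. The 6 fibroblast markers, led by *Col1a2*, summed to 438 ± 126 CPM in the former group and 180.4 ± 26.9 CPM in the latter (KP-PPARαΔ13 and KPG1-PPARαΔ13), and 2 were lower at an unadjusted p under 0.05, against 4.44% of all genes. The leukocyte markers summed to 36.7 ± 15.5 and 18.8 ± 12.4 CPM, 5 macrophage markers, led by *Cd68*, to 64.3 ± 16.6 and 40.1 ± 11.4 CPM, and 5 endothelial markers to 228 ± 212 and 126 ± 28.5 CPM (SD of 3 tumors each). The endothelial difference rested on the third KP-PPARαΔ13 tumor. The endothelial sums were 77.9, 137 and 470 CPM in KP-PPARαΔ13 and 139.6, 92.8 and 145 CPM in KPG1-PPARαΔ13. The first KP-PPARαΔ13 tumor thus lay below all KPG1-PPARαΔ13 tumors. All members of these 4 lists had negative fold changes. Their part in the class I levels was not tested. The 8 class I members became 1 without the first and 5 without the third KPG1-PPARαΔ13 tumor, and 4 without the first KP-PPARαΔ13 tumor, the one with little *Ppara*, or without the third. With sex as a covariate they were 2. Of the 11 class II members 3 were lower without the second KP-PPARαΔ13 tumor, with a median of -1.11 against -0.80 with it, and 1 without the third KPG1-PPARαΔ13 tumor. That median was -0.17 without the third KP-PPARαΔ13 tumor and -0.35 with sex as a covariate. Without the first KPG1-PPARαΔ13 tumor the medians were -1.02 and -0.48, and the log2 fold changes of these members ran from -2.74 for *Nlrc5* to -0.48 for *Cd74*. Those of *Tapbp* and *Psmb9* were then -0.77 and -1.58, of *Psmb8*, *Tap2* and *H2-M3* -1.21, -1.02 and -0.79, and of *H2-K1*, *B2m* and *H2-Aa* -1.28, -1.22 and -0.49. Without the first KP-PPARαΔ13 tumor the medians went from -1.18 to -1.24 in class I and from -0.80 to -0.90 in class II. The log2 fold changes were then -1.12 for *Tapbp*, -2.07 for *Psmb9*, -1.67 for *Psmb8*, -1.52 for *Tap2*, -2.11 for *Nlrc5* and -0.98 for *H2-M3*, and for the anchors -1.38 (*H2-K1*), -1.10 (*B2m*), -1.17 (*H2-Aa*) and -0.53 (*Cd74*).

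Genes around the pathway were read from lists of their own. Of 16 other presentation genes tested, among them the chaperones *Calr*, *Canx* and *Pdia3* and the constitutive proteasome subunits *Psmb5*, *Psmb6* and *Psmb7*, 2 were lower at an unadjusted p under 0.05 in KPG1-PPARαΔ13 against KPG1 and none higher, against 4.5% and 6.25% of all genes, with a median of 0.056. These were *Psme1*, a subunit of the proteasome activator PA28, with 116, 110 and 129.7 against 191, 160 and 172 CPM, and *Ifi30*, the thiol reductase of class II loading, with 92.9, 85.1 and 102 against 95, 159.6 and 185 CPM. Of the 6 class I-like genes encoded outside the MHC, 3 were lower and 1 higher at an unadjusted p under 0.05, against the same 4.5% and 6.25%. *Hfe*, a regulator of iron uptake, had 12.9, 12.7 and 14.3 against 28.8, 21.9 and 40.1 CPM, a log2 fold change of -1.18 ± 0.301 SE (adjusted p = 0.42). *Mr1*, which presents vitamin B metabolites, and *Azgp1* were the other two that were lower, with log2 fold changes of -0.89 and -3.06, and *Procr*, the protein C receptor, was higher at 1.90. In KP-PPARαΔ13 against KP, 2 of these 6 genes were lower and 1 higher at that threshold, against 6.03% and 5.32% of all genes.

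Of the 17 tested regulators of MHC transcription, 2 were lower at an unadjusted p under 0.05 in KPG1-PPARαΔ13 against KPG1 and none higher, against 4.5% and 6.25% of all genes, with a median of -0.073. *Irf1*, an interferon-induced transcription factor, was 1 of them and had 50.8, 67.6 and 56.6 CPM in KPG1 and 31.6, 43.7 and 44.2 CPM in KPG1-PPARαΔ13, a log2 fold change of -0.55 ± 0.223 SE (adjusted p = 0.434). *Rfx5*, which binds the X box, had 49.2, 42.8 and 44.1 against 39.4, 47.2 and 40.9 CPM. *Ifng* itself stayed at or below 0.128 CPM in every tumor. The 12 interferon-stimulated genes had no member with an unadjusted p under 0.05 in KPG1-PPARαΔ13 against KPG1, and a median of -0.59. Of these 12, 10 had negative fold changes, 3 of them without overlap between the groups, as in 9.41% of all genes. Against KP-PPARαΔ13 all 12 had negative fold changes, 2 without overlap and 1 at an unadjusted p under 0.05, against 7.25% and 4.44% of all genes lower, with a median of -0.97.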

How the data were processed

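RNA of the CD45-negative cells of 12 tumors was sequenced (TruSeq stranded mRNA, single end). Per the labels and the methods of the study, the authors trimmed reads with Cutadapt, whose version differs between these sources, and aligned them to mm10 with HISAT2. The submitters' processing notes name featureCounts 1.4.4, a read counter; the annotation and the strand setting of the counting are not given in the sources used here. The deposited counts are raw, and the 12 single-sample tables equal the count table of the series. The deposited log2 values were made by the authors from the same counts plus 0.5 with TMM scaling, and were used for this check only.

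Genes that passed edgeR's filter on low counts (16527) were tested on the deposited counts with the quasi-likelihood test of edgeR 4.0.16 (R 4.3.3) over 4 groups of 3 tumors, without covariates, with Benjamini-Hochberg adjustment over all genes tested and a threshold of 0.05. No p is adjusted over the members alone. Tumors of the same mouse are not independent, and the p-values measure the spread between tumors. DESeq2 1.42.0, limma voom (limma 3.58.1), another normalization, other filters, a replicate block, sex, summing the tumors of one mouse, and leaving out each tumor were alternatives. The scripts were tested on simulated data.

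The members, the gene lists and the tests were chosen with earlier results of these data known. The genes named in each comparison were *H2-K1*, *B2m*, *H2-Aa* and *Cd74*, plus up to 6 further members per class with an unadjusted p under 0.05 and a mean of at least 1 CPM, by smallest p. Levels were named for the chains, machinery and transactivators of each class. Values of *Psmb10* in KPG1-PPARαΔ13 against KPG1, *H2-Ke2*, the varying or steady genes *H2-Q5*, *H2-Q6*, *H2-Q7*, *H2-T22* and *H2-T23*, and the genes of the other lists named in the text were chosen after their values were seen. Exon lengths for TPM came from GENCODE M21, which held 96.4% of the gene identifiers and 99.75% of the counts. The floors of genes at 0 cover counting error only, while the 95% intervals of the fold changes carry the spread between tumors. Some single genes of the other lists are not reported here.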

Additional observations from a re-analysis of the deposited data

How the results depend on the processing

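No alternative brought a class II member past the adjusted threshold, and DESeq2 brought 1 class I member, *Psmb9*, past it in KPG1-PPARαΔ13 against KPG1. Apart from the fits that leave out a tumor, 326 fold changes of single named members kept their direction and their side of the threshold, 6 changed sign and 1 passed the threshold. With sex as a covariate the class II median became -0.59 in KP-PPARαΔ13 against KP, -0.62 in KPG1-PPARαΔ13 against KPG1, -0.43 in KPG1 against KP, -0.35 in KPG1-PPARαΔ13 against KP-PPARαΔ13 and 0.091 for the difference between genotypes. *Cd74* then had -0.26 in KPG1 against KP and -0.54 in KP-PPARαΔ13 against KP, and *H2-Aa* -0.80 in KPG1 against KP and 0.45 for the difference. In KP-PPARαΔ13 against KP, *H2-Aa* had 0.0033 with DESeq2 and 0.041 with tumors of one mouse summed. The causes were not tested.

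At an unadjusted p under 0.05, the 12 class I and 5 class II members lower in KPG1-PPARαΔ13 against KPG1 were 14 and 8 with DESeq2, 6 and 7 with limma voom, 11 and 3 with tumors of one mouse summed, and 1 and 0 with sex as a covariate. Over all genes, 744 of 16527 were lower in the unchanged fit, 938 of 16431 with DESeq2 and 716 of 16527 with limma voom. They were 471 of 16794 with tumors of one mouse summed and 246 of 16527 with sex. The 8 class I members lower in KPG1-PPARαΔ13 against KP-PPARαΔ13 were 13 with DESeq2, 5 with limma voom, 13 with tumors of one mouse summed, 15 with the compared groups fitted alone and 4 with the replicate block. All genes lower there were 733 of 16527 in the unchanged fit, 984 of 16431 with DESeq2 and 663 of 16527 with limma voom. They were 736 of 16794 with mice summed, 821 of 15773 with the groups alone and 590 of 16527 with the block. In KP-PPARαΔ13 against KP the class I median of -0.60 became -0.091 with limma voom, with 15 of 25 negative. It was -0.38 with a filter at a mean of 20 TPM and -0.37 with tumors of one mouse summed. In KPG1 against KP the class I median of -0.57 became -0.26 with limma voom and -0.30 with that filter.

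Leaving out each tumor in turn, the class I median ran from -0.89 to 0.53 in KP-PPARαΔ13 against KP, from -0.87 to 0.61 in KPG1 against KP and from -1.83 to -0.014 for the difference. The class II median ran from -0.54 to 0.44, from 0.11 to 0.79 and from -1.65 to -0.46 in the same order, and from -1.11 to -0.17 in KPG1-PPARαΔ13 against KP-PPARαΔ13. In KP-PPARαΔ13 against KP, *H2-K1* ran from -1.38 to 0.74, *B2m* from -1.58 to 0.39, *H2-Aa* from -1.03 to 0.44 and *Cd74* from -0.29 to 0.50. In KPG1 against KP, *H2-K1* ran from -1.60 to 0.72, *B2m* from -1.45 to 0.93 and *H2-Aa* from -0.00048 to 0.79. *H2-Aa* ran from -1.29 to 0.11 in KPG1-PPARαΔ13 against KP-PPARαΔ13, and *B2m* from -2.24 to 0.11 for the difference. The positive class I medians came without the first KP tumor, and without it 12 of 25 class I and 3 of 11 class II members had a lower difference at an unadjusted p under 0.05, against 2 and 0 with it. Over all genes, 1042 of 16984 did so without that tumor and 816 of 16527 with it.

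Samples of the same replicate number did not deviate together (Pearson r across genes from -0.19 to 0.13 in 18 pairs, over 0.1 in 2), so they share only a number. With the replicate block, the class I median in KPG1-PPARαΔ13 against KPG1 was -1.31 and the class II median -1.26, and 6 class I and 4 class II members had an unadjusted p under 0.05. For the difference 1 class I member did, against 2 without the block. Over all genes with the block, 697 of 16527 were lower at that threshold in KPG1-PPARαΔ13 against KPG1. For the difference 755 of 16527 were. The fit of the compared groups alone was not run for the difference between genotypes.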
